A study of Mus musculus with 74 samples.

Results

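The major histone gene cluster of the mouse lies on chromosome 13, and its promoter contacts were examined in 3 lists of promoter capture Hi-C interactions from HPC-7, a mouse blood progenitor cell line. The members are the interactions whose captured fragment lies wholly in chr13:21700000-23630000 (build mm10), 2989 of the 365959 listed. The Ery shStag2 list held 1213 of them among 130734 interactions, the Ery Luc list 1032 among 123042 and the HPC list 744 among 112183. They start from 45 captured fragments of 21022 in the 3 lists together. The position of the captured fragment alone chose them, and no score or count was used.

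Promoter capture Hi-C ligates pieces of chromatin that lie close in the nucleus, keeps the ligations that involve a bait fragment at a promoter, and lists pairs of fragments found together more often than a model predicts. Here chromatin was cut with HindIII, per the labels' protocols, so each captured fragment and each other end is a piece between neighbouring HindIII sites. Each deposited interaction carries a score of at least 5, given by the authors. The Ery shStag2 cells carried an inducible hairpin against Stag2, which encodes a subunit of the loop-forming cohesin ring, and the Ery Luc cells an inducible hairpin against luciferase. Both were treated with doxycycline for 72 h, except that the label of the second Ery Luc library reads 73 h, and both were grown with stem cell factor at 20 ng/ul and erythropoietin at 4 U/l. The HPC cells carried no hairpin and were grown with stem cell factor at 100 ng/ul without erythropoietin. The HPC list therefore differs from the Ery Luc list in growth factors, transduction and doxycycline, and these cannot be told apart. Each list pools 2 libraries of its condition and there is 1 list per condition, so a difference between lists cannot be set against a spread of replicates and is described without a test. How many reads lie behind each list is not stated in the labels or files, and the part of depth in any difference of counts was not tested. Knockdown of Stag2 and the transcript levels of the histone genes were not analysed here.

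Replication-dependent histone genes supply the core histones H2A, H2B, H3 and H4 and the linker histone H1 to newly copied DNA, and are transcribed mainly in S phase. Their transcripts end in a stem-loop in place of a poly(A) tail, and the genes are transcribed in nuclear foci called histone locus bodies, in which the factor NPAT is concentrated. Transfer RNA (tRNA) genes, which RNA polymerase III transcribes, lie among and beside the histone genes. The window also holds an array of Vmn1r genes, which encode pheromone receptors of the vomeronasal organ.

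Histone genes fall into 2 runs that are 1.49 Mb apart. Sub-cluster 1 holds 24 histone genes at chr13:21715711-22043658, and sub-cluster 2 holds 32 at chr13:23531044-23934913, of which 16 lie in the window. The window thus holds 40 histone genes, comprising 3 of the H1 family, 11 of H2a, 11 of H2b, 6 of H3 and 9 of H4, together with 79 tRNA genes. Between the sub-clusters lie the vomeronasal array of 36 protein-coding Vmn1r genes at chr13:22057168-23269501 and then a stretch with Zfp322a, Abt1, Btn1a1, Btn2a2 and many tRNA genes. Of the 45 captured fragments, 13 lie in sub-cluster 1, 19 in the array, 4 in the stretch beside it and 9 in sub-cluster 2. A histone gene starts or ends on 17 of them.

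The 150 bases before the start of 5 histone genes are shown because their fragments make the strongest contacts across the gap in the Ery shStag2 list. H4c6, H3c6 and H2ac8 lie in sub-cluster 2, and H4c9 and H2ac11 share 1 fragment at the end of sub-cluster 1. All 5 lie on the minus strand, at chr13:23551669-23551818, chr13:23562386-23562535, chr13:23571221-23571370, chr13:22041363-22041512 and chr13:22042950-22043099 in the order printed. Sequences are from RefSeq on GRCm38.p6, 5′ to 3′ toward the gene. Capitals mark the matches on either strand to 4 motifs, which can overlap. TATAA is the core of the TATA box, which places the start of transcription. The motif CCAAT is bound by nuclear factor Y in many promoters of dividing cells. The octamer ATTTGCAT is bound by Oct factors in H2B promoters. The last motif searched, GGTCCG, belongs to a known element of H4 promoters.
H4c6: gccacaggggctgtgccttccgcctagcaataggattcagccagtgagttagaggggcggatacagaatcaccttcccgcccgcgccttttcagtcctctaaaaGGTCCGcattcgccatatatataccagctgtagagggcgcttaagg
H3c6: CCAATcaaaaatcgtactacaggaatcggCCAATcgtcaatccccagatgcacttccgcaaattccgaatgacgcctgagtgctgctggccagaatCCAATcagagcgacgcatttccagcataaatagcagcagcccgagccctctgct
H2ac8: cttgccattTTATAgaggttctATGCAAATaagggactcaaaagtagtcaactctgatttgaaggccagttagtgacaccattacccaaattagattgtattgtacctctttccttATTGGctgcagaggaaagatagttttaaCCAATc
H4c9: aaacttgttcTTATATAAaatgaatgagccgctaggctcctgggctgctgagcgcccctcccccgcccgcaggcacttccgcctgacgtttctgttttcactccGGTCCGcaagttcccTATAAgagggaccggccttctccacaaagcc
H2ac11: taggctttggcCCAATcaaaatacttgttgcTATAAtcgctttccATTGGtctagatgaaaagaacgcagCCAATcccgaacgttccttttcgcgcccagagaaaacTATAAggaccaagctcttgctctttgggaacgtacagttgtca

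Both H4 promoters held GGTCCG, and both H2A promoters and the H3 promoter held CCAAT. Before H2ac8, TATAA and ATTTGCAT lay on the opposite strand only, at -141 and -128 from the gene start. That stretch ends at 23571370, and the fragment of H2bc8 starts at 23571376. Whether these 2 matches serve H2ac8 or a neighbouring gene was not tested. Promoters of 38 of the window's 40 histone genes matched the table. CCAAT occurred before 31 of the 38 (81.6%), against 25.3% of 27025 genes in the table, and in 10 of 10 H2a, 11 of 11 H2b and 5 of 5 H3 genes but 2 of 9 H4 genes. GGTCCG occurred before 7 of 9 H4 genes and 9 of the 38 in all (23.7%), against 4.53% of the table. TATAA stood before 17 of the 38 (44.7%), against 14.7% of the table, and ATTTGCAT before 4 (10.5%), against 1.02%. These are counts of letters in 150 bases and say nothing of binding.

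The first question was how far the contacts reach. In each list a larger share of the window's contacts than of other promoters' contacts spanned over 1 Mb, and many of these crossed the gap between the sub-clusters. The median distance between fragment midpoints within the chromosome was 1008 kb in the Ery shStag2 list, 325.2 kb in the Ery Luc list and 132.9 kb in the HPC list. For all other captured fragments it was 240.7 kb in the Ery shStag2 list, 214.1 kb in the Ery Luc list and 154.1 kb in the HPC list. The HPC median of the window lay below that of the rest of its list and both Ery medians lay above. The gap between the Ery medians depended on how they were taken. At a score of 10 or more the window's median was 1478 kb in Ery shStag2, 1388 kb in Ery Luc and 129.6 kb in HPC. With every score counted but each captured fragment given 1 median, the median over fragments was 895.8 kb in Ery shStag2, 577.9 kb in Ery Luc and 138.4 kb in HPC.

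Contacts over 1 Mb made up 598 (50.1%, exact 95% interval 47.2% to 53%) of the window's interactions within the chromosome in the Ery shStag2 list, 441 (43.6%, 40.5% to 46.7%) in the Ery Luc list and 200 (26.9%, 23.7% to 30.2%) in the HPC list. Among the other interactions the share was 8.4% in the Ery shStag2 list, 6.72% in the Ery Luc list and 0.977% in the HPC list. On the rest of chromosome 13 it was 9.79% in Ery shStag2, 6.8% in Ery Luc and 1.51% in HPC. Intervals here and below cover counting error only, and neighbouring fragments are not independent. When the genome was divided into 1318 tiles as long as the window, none reached the window's number of contacts over 1 Mb in any of the 3 lists. These counts were not scaled to the number of captured fragments, of which the window holds 45 of 21022. The tiles lay on a fixed grid, whereas the window was set around the cluster. The highest tile, on chromosome 6 at 131.2 to 133.2 Mb, held 267 in Ery shStag2, 176 in Ery Luc and 114 in HPC, and the median tile held 4 in Ery shStag2, 3 in Ery Luc and 0 in HPC.

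**Figure D1:**
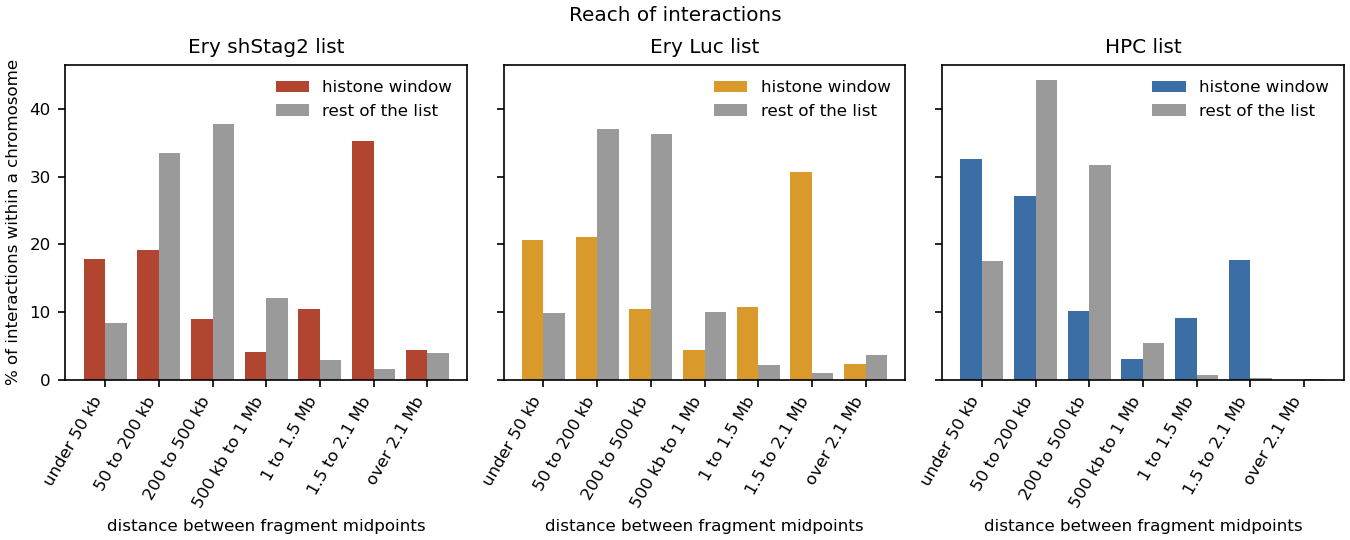
Share of interactions within a chromosome (y axis, %) by distance between fragment midpoints (x axis), for the histone window (coloured) and the rest of each list (grey), in the Ery shStag2, Ery Luc and HPC lists from left to right. The window has a separate peak at 1.5 to 2.1 Mb, with 35.3% of its interactions in Ery shStag2, 30.7% in Ery Luc and 17.7% in HPC, where the rest of the list holds 1.6% in Ery shStag2, 1.02% in Ery Luc and 0.273% in HPC.

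The distance plot shows near contacts and a second group of contacts across the gap. Contacts under 50 kb numbered 212 in Ery shStag2, 208 in Ery Luc and 243 in HPC, while those of 1.5 to 2.1 Mb numbered 421 in Ery shStag2, 310 in Ery Luc and 132 in HPC. Between these classes, the emptiest was that of 500 kb to 1 Mb, with 49 interactions in Ery shStag2, 44 in Ery Luc and 23 in HPC. The class of 50 to 200 kb held 228 in Ery shStag2, 213 in Ery Luc and 202 in HPC.

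The second question was which sub-clusters the contacts join. Contacts between sub-cluster 1 and sub-cluster 2 were more numerous in the Ery lists than in the HPC list, whereas contacts inside the sub-clusters were nearly equal in number. Between the sub-clusters there were 351 contacts in Ery shStag2 (28.9% of the window's interactions, 26.4% to 31.6%), 278 in Ery Luc (26.9%, 24.3% to 29.8%) and 125 in HPC (16.8%, 14.2% to 19.7%). Inside the sub-clusters there were 389 contacts in Ery shStag2, 367 in Ery Luc and 355 in HPC. The ratio of Ery Luc to HPC was thus 2.22 between and 1.03 within, and that of Ery shStag2 to Ery Luc 1.26 between and 1.06 within.

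These ratios are to be read against the lists as wholes. Outside the window, the lists held 1.06 times as many interactions in Ery shStag2 as in Ery Luc and 1.09 times as many in Ery Luc as in HPC. Their contacts over 1 Mb numbered 10058 in Ery shStag2, 7614 in Ery Luc and 1084 in HPC, a ratio of 1.32 for Ery shStag2 to Ery Luc and of 7.02 for Ery Luc to HPC. The window's own contacts over 1 Mb gave a ratio of 1.36 for Ery shStag2 to Ery Luc and of 2.21 for Ery Luc to HPC. More long contacts in Ery Luc than in HPC were thus listed outside the window too, where the ratio was larger. At a score of 10 or more, the ratio of Ery shStag2 to Ery Luc was 1.28 in the window and 1.76 outside it, and that of Ery Luc to HPC 2.32 in the window and 3.59 outside it. Whether the window's ratio of Ery shStag2 to Ery Luc lay above or below that of the rest thus depended on the score minimum. The window supplied 5.61% of all contacts over 1 Mb in Ery shStag2, 5.47% in Ery Luc and 15.6% in HPC, and at a score of 10 or more 21% in Ery shStag2, 26.7% in Ery Luc and 36.1% in HPC.

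The contacts between the sub-clusters spanned 1477 to 2178 kb in Ery shStag2, 1477 to 2155 kb in Ery Luc and 1487 to 2007 kb in HPC. They were seen from both sides. Fragments captured in sub-cluster 1 gave 192 in Ery shStag2, 140 in Ery Luc and 59 in HPC, and those captured in sub-cluster 2 gave 159 in Ery shStag2, 138 in Ery Luc and 66 in HPC. A histone gene overlapped both fragments in 168 of them in Ery shStag2 (47.9%), 138 in Ery Luc (49.6%) and 69 in HPC (55.2%), and neither fragment in 4 in Ery shStag2, 3 in Ery Luc and 0 in HPC. A histone gene lies on all 9 captured fragments of sub-cluster 2 in the window and on 8 of 13 in sub-cluster 1. These shares thus partly follow from the choice of captured fragments. Of the other ends alone, 179 overlapped a histone gene in Ery shStag2 (51%), 144 in Ery Luc (51.8%) and 74 in HPC (59.2%). Among fragments seen in any list, captured or not, a histone gene overlapped 14 of 83 in sub-cluster 1 and 38 of 116 in sub-cluster 2.

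**Figure D2:**
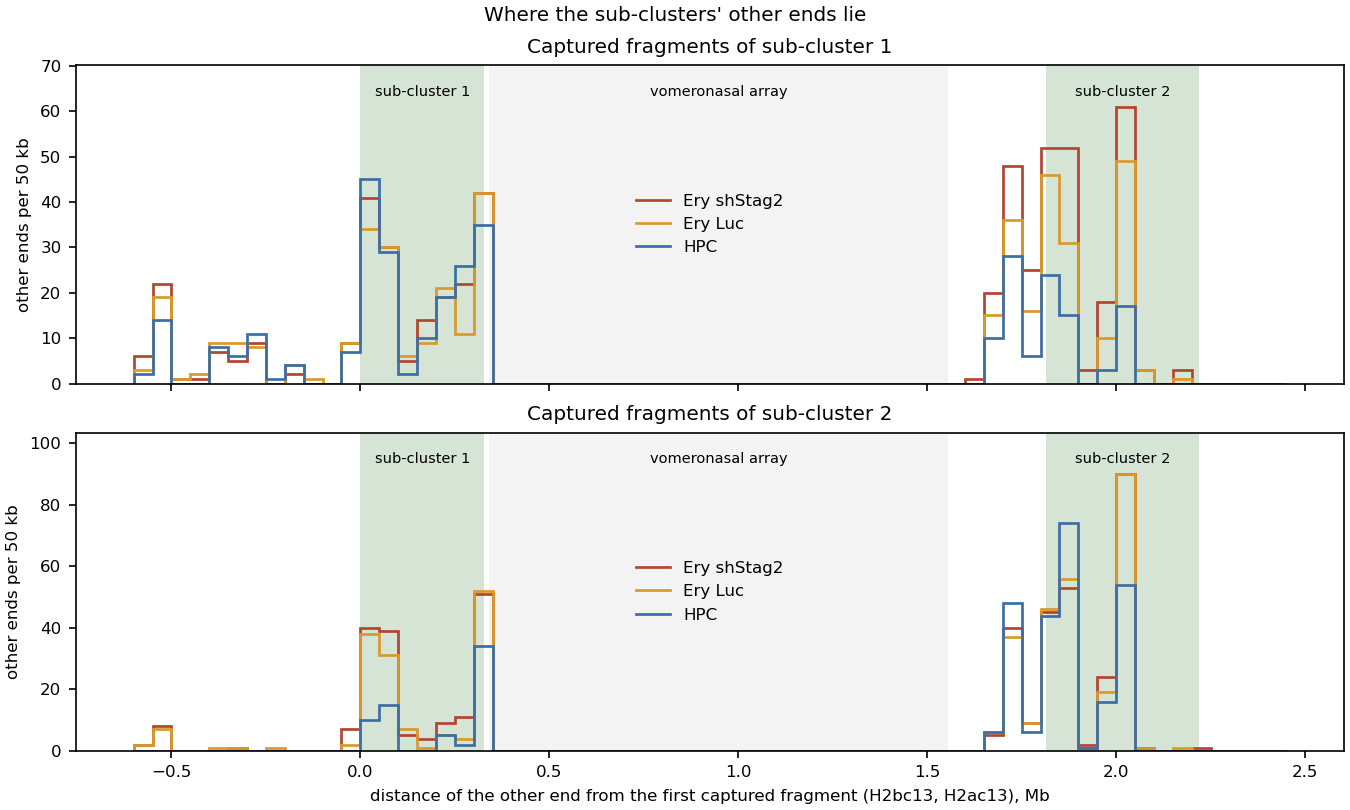
Number of other ends per 50 kb (y axis) against their distance from the first captured fragment of the window (x axis, Mb), for fragments captured in sub-cluster 1 (top) and in sub-cluster 2 (bottom), with 1 line per list. Other ends fill both sub-clusters and the stretch just before sub-cluster 2, and are absent over the shaded vomeronasal array in all 3 lists.

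The vomeronasal array between the sub-clusters was skipped. None of the 1013 interactions captured in the sub-clusters in Ery shStag2 had its other end in the array, nor did any of 860 in Ery Luc or of 637 in HPC, although the array covers 1212 kb of the gap. The lists show only contacts at or above the score minimum, so weaker contacts with the array cannot be judged. The 19 captured array fragments had 61 interactions of their own in Ery shStag2, 54 in Ery Luc and 17 in HPC, with 1 to 10 per fragment in Ery shStag2. Of these, 19 in Ery shStag2, 11 in Ery Luc and 5 in HPC stayed in the array. Another 26 in Ery shStag2, 30 in Ery Luc and 12 in HPC ended in the stretch of Abt1 and the butyrophilin genes, and none ended in a sub-cluster.

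Promoters in sub-cluster 1 differed in their partners across the gap. Its 8 captured fragments with a histone gene had 177 contacts with sub-cluster 2 in Ery shStag2 and 43 with the stretch before it, 131 and 33 in Ery Luc, and 54 and 23 in HPC. Sub-cluster 2 thus took 80.5% of these contacts in Ery shStag2, 79.9% in Ery Luc and 70.1% in HPC. The fragments differed in this. That of H4c9 and H2ac11 had 31 contacts with sub-cluster 2 and 17 with the stretch in Ery shStag2, 25 and 20 in Ery Luc, and 17 and 16 in HPC. That of H2bc13 and H2ac13 had 4 and 4 in HPC. No histone-gene fragment had fewer contacts with sub-cluster 2 than with the stretch in any list. The 5 captured fragments of sub-cluster 1 with no histone gene, among them those of Zfp184, Pom121l2, Prss16 and Gm11274, had 15 contacts with sub-cluster 2 in Ery shStag2 and 51 with the stretch before it, 9 and 34 in Ery Luc, and 5 and 21 in HPC. Sub-cluster 2 took 22.7% of these in Ery shStag2, 20.9% in Ery Luc and 19.2% in HPC. The fragment of Gm11274, a predicted gene among the histone genes, went the other way. It had 7 contacts with sub-cluster 2 in Ery shStag2 and 0 with the stretch, 6 and 1 in Ery Luc, and 1 and 0 in HPC, and was named after its values were seen.

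From the opposite side, the contacts captured in sub-cluster 2 ended on histone genes of sub-cluster 1 in a larger share than those captured in the stretch. Of contacts captured in sub-cluster 2 that reached sub-cluster 1, 57 of 159 ended on a fragment overlapping a histone gene in Ery shStag2 (35.8%), 57 of 138 in Ery Luc (41.3%) and 30 of 66 in HPC (45.5%). Of contacts captured at Zfp322a, Abt1, Btn1a1 and Btn2a2 that reached sub-cluster 1, 6 of 63 did so in Ery shStag2 (9.52%), 1 of 50 in Ery Luc (2%) and 1 of 24 in HPC (4.17%). Those ended on a fragment with a tRNA gene in 44.4% of cases in Ery shStag2, 44% in Ery Luc and 33.3% in HPC, while the contacts captured in sub-cluster 2 did so in 17% in Ery shStag2, 17.4% in Ery Luc and 15.2% in HPC. A tRNA gene overlapped 26.5% of the sub-cluster 1 fragments seen in any list. Sub-cluster 1 fragments without a histone gene still took most of the contacts captured in sub-cluster 2, 102 in Ery shStag2, 81 in Ery Luc and 36 in HPC, and more than the 57 in Ery shStag2, 49 in Ery Luc and 23 in HPC that were captured in the stretch. These shares are descriptions of 3 lists, without a test.

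Contacts between the histone-gene fragments themselves filled more of the possible grid in the Ery lists than in HPC. With 8 such captured fragments in sub-cluster 1 and 9 in sub-cluster 2 there are 72 possible pairs, of which 62 were listed in Ery shStag2, 59 in Ery Luc and 42 in HPC. All 3 lists held 39 of them and no list held 5. A score of 20 or more was reached by 35 in Ery shStag2, 26 in Ery Luc and 9 in HPC. The fragment of H4c9, a histone H4 gene, and H2ac11, a histone H2A gene, was paired with all 9 fragments opposite in each list. The fragment of H2bc13 and H2ac13, at the far end of sub-cluster 1, was paired with 9 in Ery shStag2, 9 in Ery Luc and 8 in HPC. The fragment of H4c11 was paired with 6 in Ery shStag2, 2 in Ery Luc and 0 in HPC.

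**Figure D3:**
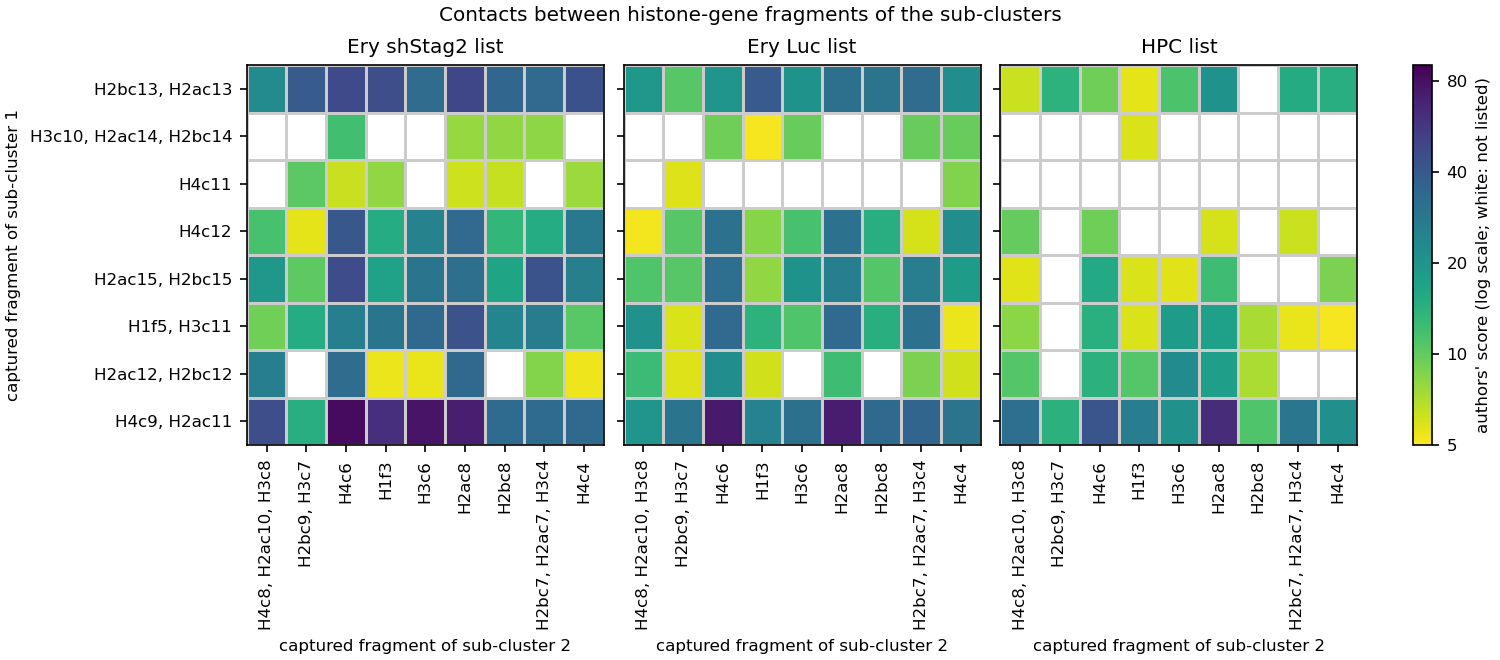
Authors' score (colour, log scale from the score minimum of 5) for each pair of a histone-gene fragment of sub-cluster 1 (rows) and of sub-cluster 2 (columns), both in chromosome order, in the Ery shStag2, Ery Luc and HPC lists from left to right; white marks a pair not listed. The row of H4c9 and H2ac11 is filled in all 3 lists, and 62 cells are filled in Ery shStag2, 59 in Ery Luc and 42 in HPC.

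The 3 highest-scoring contacts across the gap in Ery shStag2 joined H4c9 and H2ac11 to the fragments of H4c6, H3c6 and H2ac8, whose promoters are printed above. The pairs with H4c6 and H2ac8 were also the highest in Ery Luc and in HPC, but that with H3c6 was not among the top 3 there. With H4c6, 1510 kb away, the score was 82.52 in Ery shStag2, 73.63 in Ery Luc and 42.71 in HPC. With H2ac8, 1527 kb away, it was 70.45 in Ery shStag2, 71.60 in Ery Luc and 63.22 in HPC. With H3c6, 1520 kb away, it was 77.29 in Ery shStag2, 31.19 in Ery Luc and 21.15 in HPC. The pair with H2ac8 thus had like scores in the 3 lists, while that with H3c6 stood apart in Ery shStag2.

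Other leading contacts across the gap also met that end of sub-cluster 1. The fragment of H4c8, H2ac10 and H3c8, 1487 kb away, was paired with H4c9 and H2ac11 at 45.58 in Ery shStag2, 19.98 in Ery Luc and 31.94 in HPC. H4c6 was paired with the fragment next to H4c9 and H2ac11, on which no gene is annotated, at 33.98 in Ery shStag2, 39.99 in Ery Luc and 26.83 in HPC. The scores are the authors', and how they scale between lists is not stated in the labels or files.

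The strongest contacts that did not cross the gap were short or joined the ends of a sub-cluster. H2bc9 and H3c7 were paired with H4c8, H2ac10 and H3c8, 16 kb away, at a score of 35.64 in Ery shStag2, 89.55 in Ery Luc and 58.25 in HPC. H2bc9 and H3c7 were paired with H4c6, 7 kb away, at 49.45 in Ery shStag2, 56.48 in Ery Luc and 36.04 in HPC. H4c9 and H2ac11 were paired with H2bc13 and H2ac13 at the opposite end of sub-cluster 1, 325 kb away, at 40.64 in Ery shStag2, 50.78 in Ery Luc and 33.27 in HPC. The fragment of H4c8, H2ac10 and H3c8 also met 3 fragments 80 to 89 kb before it, in the stretch with tRNA genes. Their scores were 45.04, 38.02 and 34.78 in Ery shStag2, 33.01, 34.94 and 43.31 in Ery Luc, and 37.25, 48.05 and 45.86 in HPC.

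As a set, the contacts between the sub-clusters scored higher than those inside them in each list. Their median score was 10.95 in Ery shStag2, 9.89 in Ery Luc and 9.32 in HPC, and a score of 10 or more was reached by 189 in Ery shStag2, 138 in Ery Luc and 58 in HPC. Inside the sub-clusters the median was 8.28 in Ery shStag2, 8.06 in Ery Luc and 8.26 in HPC. Over all of the window's interactions, the median score was 8.10 in Ery shStag2, 7.96 in Ery Luc and 8.04 in HPC, while for the rest of the list it was 6.32 in Ery shStag2, 6.31 in Ery Luc and 6.55 in HPC. The share with a score of 10 or more was 35.8% in Ery shStag2, 34.8% in Ery Luc and 35.6% in HPC, while for the rest it was 12.2% in Ery shStag2, 11.9% in Ery Luc and 14.6% in HPC.

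The lists together held 428 different pairs of fragments between the sub-clusters. Of these, 101 were in all 3 lists and 113 in Ery shStag2 and Ery Luc but not in HPC. Ery shStag2 alone held 127, Ery Luc alone 60 and HPC alone 7. Ery shStag2 and HPC shared another 12 pairs, and Ery Luc and HPC another 8. A pair counts as present in a list whichever of its fragments was captured, so these numbers also take in 2 pairs in Ery shStag2, 4 in Ery Luc and 3 in HPC that were captured there outside the window and are no members of that list. The 101 pairs of all 3 lists had a median score of 26.30 in Ery shStag2, 18.42 in Ery Luc and 10 in HPC. The 127 pairs of Ery shStag2 alone had a median of 6.49, close to the minimum, and the 60 of Ery Luc alone 6.76.

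The other 364 window pairs present in all 3 lists had medians that lay closer together, 9.86 in Ery shStag2, 9.39 in Ery Luc and 10.22 in HPC. The 36944 such pairs outside the window had medians of 7.89 in Ery shStag2, 7.93 in Ery Luc and 8.57 in HPC. Of the 101 pairs between the sub-clusters, 76 scored higher in Ery Luc than in HPC, with a median difference of 7.89, and 72 scored higher in Ery shStag2 than in Ery Luc, with a median difference of 5.59. Pairs scoring higher were not counted among the other 364 and 36944, which were not matched to these for distance. Of the 111439 HPC interactions outside the window, only 1084 spanned over 1 Mb. Whether pairs of like distance elsewhere differ as much in score was not tested.

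Window contacts recurred between lists more often than those of the rest. Of the Ery shStag2 interactions, 58.5% (55.6% to 61.2%) were in Ery Luc, against 42.4% of the rest, and 68.4% (65.5% to 71.2%) of those of Ery Luc were in Ery shStag2, against 45%. Of the Ery Luc interactions, 49.7% (46.6% to 52.8%) were in HPC, against 42.1%, and 68.8% (65.4% to 72.1%) of those of HPC were in Ery Luc, against 46.1%. The gap was wider over 1 Mb. There 49.3% of Ery shStag2 contacts were in Ery Luc (rest of the list 9.77%), and 66.4% of Ery Luc contacts were in Ery shStag2 (rest 12.9%). Of Ery Luc contacts 32.4% were in HPC (rest 5.03%), and of HPC contacts 72% were in Ery Luc (rest 35.2%). With the rest limited to 1.3 to 2.1 Mb, its shares were in turn 13.1%, 21.4%, 7.65% and 31.5%.

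Recurrence went with score. Among interactions scoring 10 to 20, 79.5% of the window's in Ery shStag2 were in Ery Luc, against 80.4% of the rest, and among those scoring 20 or more, 95.8% against 95.2%. Among Ery Luc interactions scoring 10 to 20, 65.2% (59.1% to 70.9%) of the window's were in HPC, against 74.6% of the rest. In the reverse directions the window's share at scores of 10 to 20 lay above that of the rest. Among Ery Luc interactions scoring 10 to 20, 89.4% (85% to 92.8%) of the window's were in Ery shStag2, against 83.9% of the rest. Among HPC interactions scoring 10 to 20, 95.2% of the window's were in Ery shStag2, against 86.6%, and 91.3% were in Ery Luc, against 87.7%. Among HPC interactions scoring 5 to 7, 43.3% of the window's were in Ery Luc, against 30% of the rest. Within score classes, the window thus lay above, near or below other promoters, depending on which list was set against which.

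The third question was which captured fragments held more or fewer interactions. A difference of at least 2 interactions was called a gain or a loss. In Ery Luc against HPC, 29 of the 43 window fragments listed in either (67.4%) gained, against 37.3% of all captured fragments, and 2 lost (4.65%), against 22%. In Ery shStag2 against Ery Luc, 24 of 45 (53.3%) gained, against 30.1% of all captured fragments, and 8 lost (17.8%), against 23.4%. With a difference of at least 5, 19 window fragments gained in Ery Luc against HPC (12.2% of all captured fragments) and 0 lost (9.7%), and 16 gained (9.55%) and 2 lost (6.89%) in Ery shStag2 against Ery Luc. Fragments with more interactions can differ by more, so those with 10 or more in either list were also set side by side. In Ery Luc against HPC, 20 of 26 such window fragments gained, against 45.1% of all such fragments, and 2 lost, against 42.9%. In Ery shStag2 against Ery Luc, 19 of 27 gained, against 47.8%, and 4 lost, against 36.3%.

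Of the 17 fragments with a histone gene, all with 10 or more interactions in a list, 15 gained and 0 lost in Ery Luc against HPC. In Ery shStag2 against Ery Luc, 12 gained and 2 lost. Of all captured fragments with 10 or more, 45.1% gained and 42.9% lost in the first comparison, and 47.8% and 36.3% in the second. Their median number of interactions was 51 in Ery shStag2 (14 to 82), 46 in Ery Luc (15 to 74) and 29 in HPC (0 to 56). The 28 other fragments had medians of 4 in Ery shStag2, 3 in Ery Luc and 1.5 in HPC, the low values being those of the vomeronasal array.

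**Figure D4:**
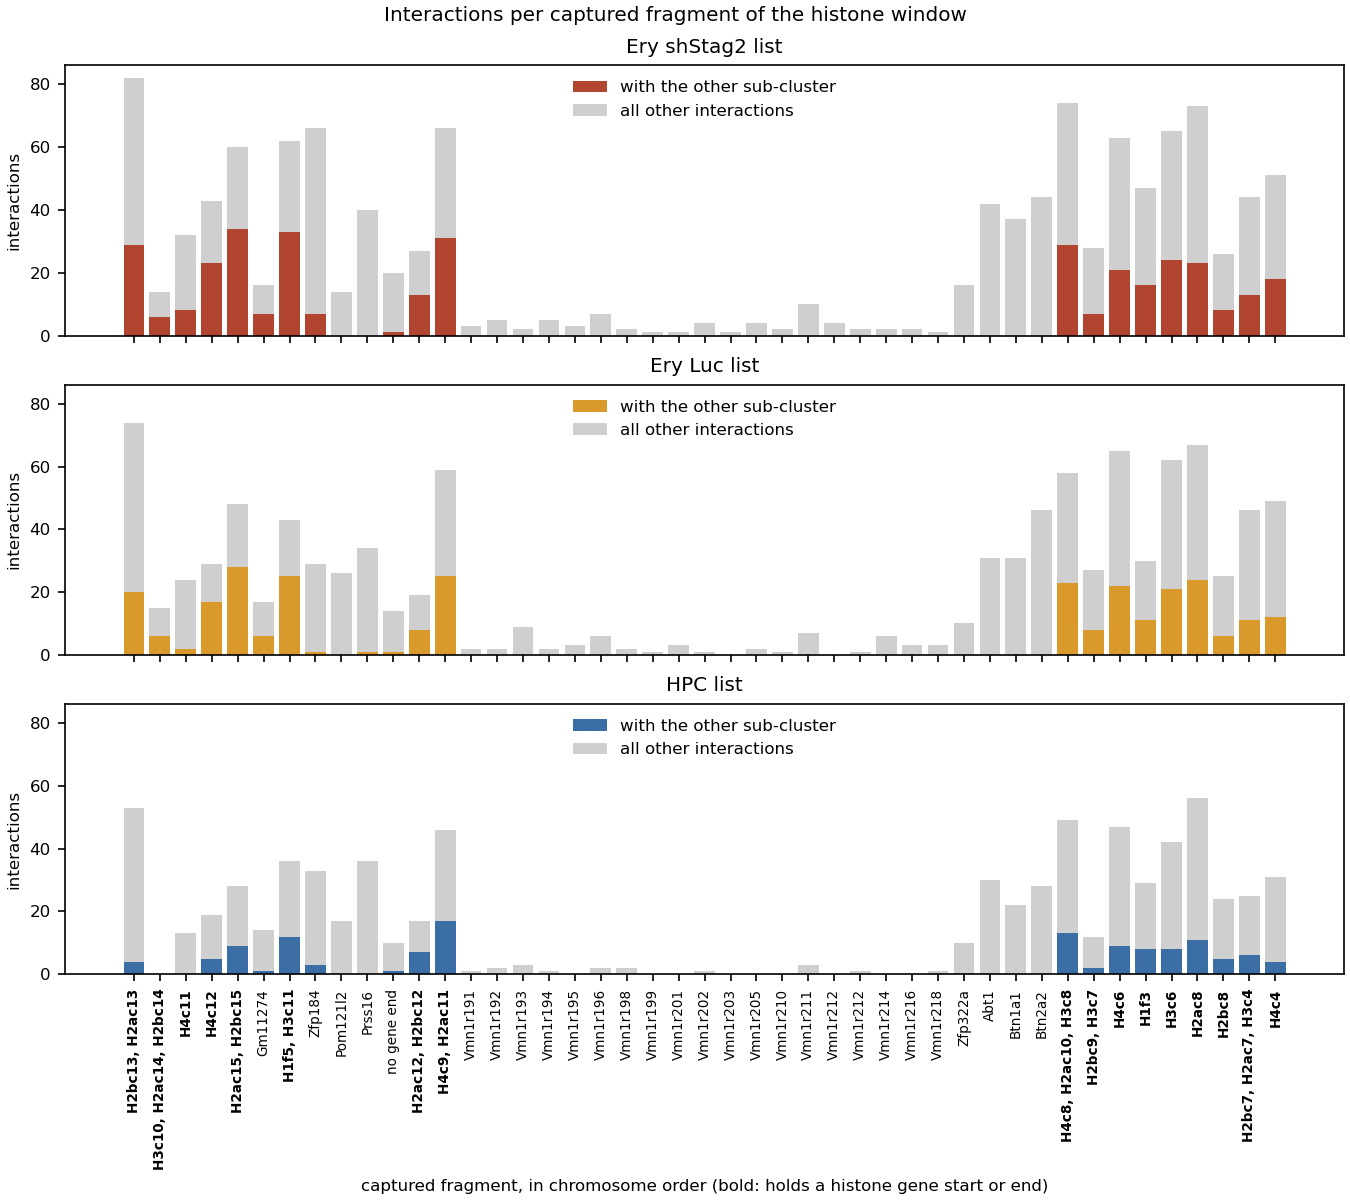
Interactions per captured fragment (y axis) for the 45 captured fragments in chromosome order (x axis), in the Ery shStag2, Ery Luc and HPC lists from top to bottom; the coloured part of a bar is contacts with the other sub-cluster, and bold names mark fragments with a histone gene start or end. Contacts with the other sub-cluster come from histone-gene fragments, apart from 15 in Ery shStag2, 9 in Ery Luc and 5 in HPC, all captured in sub-cluster 1. The 9 captured fragments of sub-cluster 2 all hold a histone gene, so contacts captured there could come from no other kind.

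Of the histone-gene fragments, that of H2bc13 and H2ac13, which encode H2B and H2A, had the most interactions over the 3 lists, with 82 in Ery shStag2, 74 in Ery Luc and 53 in HPC. Counted on either side of a pair, it had 109 in Ery shStag2, 102 in Ery Luc and 79 in HPC. As captured fragment it had 29 contacts with sub-cluster 2 in Ery shStag2, 20 in Ery Luc and 4 in HPC. Its contacts inside sub-cluster 1, counted alike, numbered 22 in Ery shStag2, 20 in Ery Luc and 20 in HPC. Pairs listed from the sub-cluster 2 side are left out of these numbers. The grid above, which takes either side, pairs it with 8 histone-gene fragments of sub-cluster 2 in HPC. The fragment of H2ac15 and H2bc15 had 60 interactions in Ery shStag2, 48 in Ery Luc and 28 in HPC, and of these 34 in Ery shStag2, 28 in Ery Luc and 9 in HPC crossed the gap. The fragment of H2bc7, H2ac7 and H3c4 had 44 in Ery shStag2, 46 in Ery Luc and 25 in HPC. On either side of a pair it had 49 in Ery shStag2, 48 in Ery Luc and 27 in HPC. The gains of Ery Luc over HPC were 21 for H2bc13 and H2ac13, 20 for H2ac15 and H2bc15 and 21 for H2bc7, H2ac7 and H3c4. Together with that of H3c6, also 20, these were the largest in the window.

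The linker histone genes H1f5 and H1f3 lay on fragments with more interactions in Ery shStag2. That of H1f5 and H3c11 had 62 in Ery shStag2, 43 in Ery Luc and 36 in HPC, and that of H1f3 had 47 in Ery shStag2, 30 in Ery Luc and 29 in HPC. In both, contacts across the gap were most numerous in Ery shStag2 too. They numbered 33 in Ery shStag2, 25 in Ery Luc and 12 in HPC for H1f5 and H3c11, and 16 in Ery shStag2, 11 in Ery Luc and 8 in HPC for H1f3. The third H1 gene, H1f4, lies on a captured fragment that runs past the window's edge and is no member. It had fewer interactions in Ery shStag2, 20, than in Ery Luc, 24.

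The other histone-gene fragments with many interactions were likewise lowest in HPC. That of H2ac8 had 73 in Ery shStag2, 67 in Ery Luc and 56 in HPC, and that of H4c8, H2ac10 and H3c8 had 74 in Ery shStag2, 58 in Ery Luc and 49 in HPC. That of H4c6 had 63 in Ery shStag2, 65 in Ery Luc and 47 in HPC. That of H4c9 and H2ac11 had 66 in Ery shStag2, 59 in Ery Luc and 46 in HPC, and that of H3c6 had 65 in Ery shStag2, 62 in Ery Luc and 42 in HPC. The fragment of H3c10, H2bc14 and the neighbouring H2ac14 had 14 in Ery shStag2, 15 in Ery Luc and none in HPC as a captured fragment.

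The largest gain of Ery shStag2 over Ery Luc in the window was at Zfp184, a zinc finger gene in sub-cluster 1 that shares its fragment with a tRNA gene. It had 66 interactions in Ery shStag2, 29 in Ery Luc and 33 in HPC, so that Ery shStag2 exceeded Ery Luc by 37. At a score of 7 or more it had 32 in Ery shStag2, 22 in Ery Luc and 21 in HPC, and was no longer the largest gain, since H1f3 then had 34 in Ery shStag2, 18 in Ery Luc and 12 in HPC. Its contacts with the stretch before sub-cluster 2 numbered 23 in Ery shStag2, 11 in Ery Luc and 11 in HPC, those inside sub-cluster 1 numbered 25 in Ery shStag2, 15 in Ery Luc and 18 in HPC, and those with sub-cluster 2 numbered 7 in Ery shStag2, 1 in Ery Luc and 3 in HPC. Pom121l2, a neighbour related to a nuclear pore gene, showed the reverse, with 14 in Ery shStag2, 26 in Ery Luc and 17 in HPC. Contacts of Pom121l2 inside sub-cluster 1 numbered 9 in Ery shStag2, 19 in Ery Luc and 15 in HPC. The array fragments of Vmn1r193, with 2 in Ery shStag2, 9 in Ery Luc and 3 in HPC, and of Vmn1r214, with 2 in Ery shStag2, 6 in Ery Luc and 0 in HPC, made the next largest losses.

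Among the other fragments without a histone gene, those of Prss16, Abt1 and Btn1a1 were highest in Ery shStag2, and that of Btn2a2 in Ery Luc. Counted on either side of a pair, Btn2a2 too was highest in Ery shStag2, with 52 against 49 in Ery Luc and 30 in HPC. Prss16, which encodes a serine protease of the thymus, had 40 interactions in Ery shStag2, 34 in Ery Luc and 36 in HPC. Abt1, which encodes an activator of basal transcription, had 42 in Ery shStag2, 31 in Ery Luc and 30 in HPC. The butyrophilin genes had 44 in Ery shStag2, 46 in Ery Luc and 28 in HPC for Btn2a2, and 37 in Ery shStag2, 31 in Ery Luc and 22 in HPC for Btn1a1. For Btn2a2 the contacts with sub-cluster 1 numbered 21 in Ery shStag2, 21 in Ery Luc and 6 in HPC, while those inside its own stretch numbered 21 in Ery shStag2, 23 in Ery Luc and 22 in HPC.

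Outside the span from sub-cluster 1 to the end of sub-cluster 2, the contacts mostly met the stretch just before sub-cluster 1. Many others left the window but ended in the rest of sub-cluster 2. An example is the 50 kb starting 2000 kb after the first captured fragment. Fragments captured in sub-cluster 1 had 61 other ends there in Ery shStag2, 49 in Ery Luc and 17 in HPC. Those captured in sub-cluster 2 had 90 in Ery shStag2, 90 in Ery Luc and 54 in HPC. Captured fragments of sub-cluster 1 had 72 contacts upstream in Ery shStag2, 65 in Ery Luc and 53 in HPC. The window's contacts with fragments overlapping Trim27, which encodes a RING finger protein, numbered 22 in Ery shStag2, 20 in Ery Luc and 10 in HPC. Those with Zscan12, a zinc finger gene, numbered 6 in Ery shStag2, 10 in Ery Luc and 8 in HPC. The single upstream fragment with the most contacts in each list was that of Olfr1359 and tRNA genes. It took 16 in Ery shStag2, 11 in Ery Luc and 7 in HPC. Fragments overlapping Zscan26 took 9 in Ery shStag2, 7 in Ery Luc and 9 in HPC. These upstream genes were named after their values were seen. Sub-cluster 2 had 19 contacts upstream of sub-cluster 1 in Ery shStag2, 15 in Ery Luc and 0 in HPC, at median distances of 2334 kb in Ery shStag2 and 2359 kb in Ery Luc. It had 19 downstream of its own end in Ery shStag2, 6 in Ery Luc and 0 in HPC. No window contact in HPC spanned more than 2.01 Mb, whereas the longest in the Ery lists spanned 36.6 Mb in Ery shStag2 and 36.2 Mb in Ery Luc.

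Contacts of the window with other chromosomes were few. They numbered 19 (1.57%, 0.946% to 2.44%) in Ery shStag2, 21 (2.03%, 1.26% to 3.09%) in Ery Luc and 0 of 744 in HPC, while the rest of the list had 7.51% in Ery shStag2, 7.19% in Ery Luc and 0.472% in HPC. Of them, 8 in Ery shStag2 and 13 in Ery Luc came from array fragments. Only 1 stretch of 1 Mb on another chromosome took 3 or more, in Ery shStag2, and it held the histone genes of chromosome 3 at chr3:96219885-96270192. The 3 captured fragments that met it carried H2ac15 and H2bc15, H4c6, and H1f3, with scores of 8.02, 7.84 and 8.02. Ery Luc had 1 such contact, from H4c6 at a score of 5.47, and HPC had 0. The smaller histone gene groups on chromosome 6 at chr6:136803993-136810074 and chromosome 11 at chr11:58948911-58962273 had no contact with the window in any list.

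The edges of the window cut through dense contacts. The last captured fragment before it, with Olfr1359 and tRNA genes, had 40 interactions in Ery shStag2, 26 in Ery Luc and 23 in HPC. The first captured fragment after it, with H2bc6 and H1f4, had 20 in Ery shStag2, 24 in Ery Luc and 14 in HPC. Among the members, the rest of sub-cluster 2 appears only as other ends.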

How the data were processed

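The deposited lists give, for each condition, pairs of HindIII fragments with the authors' score, on mm10, the build that the submitters' processing notes name. Neither the caller behind the score nor the number of reads is stated. The lists use the unit score, as deposited by the authors, with a minimum of 5; scores served only to describe, rank or filter. A pair of captured fragments is listed once, so pairs were matched in either order. Genes came from RefSeq on GRCm38.p6. Sub-clusters are runs of histone genes split where neighbours lie over 500 kb apart. Shares have exact Clopper-Pearson intervals at 95% (scipy 1.17.1, pandas 2.3.3, Python 3.11.15), which cover counting error only. The scripts were tested on simulated lists. Named fragments are the 8 with a histone gene and the 5 others with the most interactions, and the 3 largest gains and losses of each comparison, fewer where fewer were called; named contacts are the 3 between sub-clusters and the 3 others with the highest score in each list. The fragments of H3c10 and H4c11 were named after their values were seen. Members, lists and rules were chosen with earlier results of these data known. RNA-seq counts were not used, because no table pairs their transcript identifiers with genes.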

Additional observations from a re-analysis of the deposited data

Results flagged for a closer look

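Captured fragments of the chromosome 3 histone cluster had 5 contacts whose other end lay in the chromosome 13 window in Ery shStag2, against 1 in Ery Luc and 0 in HPC. These stand outside the members, whose captured fragment lies in the window, and were listed because the count in Ery shStag2 was above that of the HPC list. The highest scoring joined H4c14 to H3c6 at 12.68. With those captured in the window, contacts between both clusters came to 8 of 15 interchromosomal contacts of the chromosome 3 cluster in Ery shStag2, 2 of 7 in Ery Luc and 0 of 1 in HPC. The Ery lists held more contacts between chromosomes as wholes, with 7.46% in Ery shStag2, 7.14% in Ery Luc and 0.469% in HPC, and the part of this in the result was not tested.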

How the results depend on the processing

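No paired analysis was possible because each list pools its 2 libraries. The planned edgeR test of histone transcripts and its alternatives (DESeq2, no filter on low counts, replicate block, leaving out each library) were not run, since transcript identifiers could not be paired with genes. With a score minimum of 7 the window held 752 interactions in Ery shStag2, 623 in Ery Luc and 481 in HPC, and with a minimum of 10 it held 434 in Ery shStag2, 359 in Ery Luc and 265 in HPC. At 10 or more, contacts between sub-clusters numbered 189 in Ery shStag2, 138 in Ery Luc and 58 in HPC, contacts over 1 Mb made up 56% in Ery shStag2, 52.9% in Ery Luc and 30.9% in HPC, and the median distance in Ery Luc was 1388 kb. Without contacts in which both fragments overlap a histone gene, an alternative chosen after seeing the data, contacts between sub-clusters numbered 183 in Ery shStag2, 140 in Ery Luc and 56 in HPC. Taken over captured fragments, the median distance in Ery Luc was 577.9 kb. At a score of 10 or more, 44.6% of Ery Luc interactions were in HPC. When adjoining other ends counted as equal the share was 64.8%, and for Ery shStag2 in Ery Luc 71.1%. With a difference of at least 5, 19 fragments gained (12.2% of all captured fragments) and 0 lost (9.7%) in Ery Luc against HPC. In Ery shStag2 against Ery Luc, 2 then lost (6.89%). With contacts within chromosomes alone, 4 of 45 lost in that comparison (23.5% of all captured fragments) and 23 gained (29.3%). Counting a fragment on either side of a pair was an alternative not planned beforehand. In Ery Luc against HPC, 31 of 43 then gained (39.1% of all captured fragments) and 2 lost (23.3%). In Ery shStag2 against Ery Luc, 27 of 45 gained (31.2%) and 6 lost (24.6%). The order of the lists in every count of interactions, contacts between sub-clusters and share over 1 Mb was the same under each alternative run. Counts depend on a read depth that is not given.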
